A study of Mus musculus and Homo sapiens with 10 samples.

Results

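The subject is a stretch of the short arm of human chromosome 6, from 26 to 29 Mb in hg19, that holds the major cluster of replication-dependent histone genes (HIST1). Its members are the regions of the authors' human H3K4me3 lists that overlap the stretch by at least 1 bp. There are 50 of them among 3852 listed human regions. The members were chosen by the authors' calls of changed H3K4me3 in these same lists, within a stretch picked for its crowding and direction, so their direction and length are given as a description, with no test.

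Cells of MDA-MB-231-Luc, a derivative of the human breast cancer line MDA-MB-231, were infected with pLKO.1 lentivirus carrying either a short hairpin RNA against CBX8 or the scrambled control shScr. The treatment text describes selection in puromycin at 2 ug/ml for at least 4 days. Mononucleosomes released with micrococcal nuclease were precipitated with an antibody to H3K4me3, and the control genotype is labelled wild type. Each condition had 1 library and the depth of neither is known here, so no difference below has a replicate check. The deposited lists name the regions that were lower, or higher, in the knockdown library than in the scrambled one. They hold positions only, with no fold, score, read count or p-value for a region. The level of CBX8 after knockdown was not analysed here. A site missing from both lists is therefore not shown to be unchanged.

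Replication-dependent histone genes encode the core histones H2A, H2B, H3 and H4 and the linker histone H1, and they are transcribed mainly in S phase, when new DNA is packaged. They are short, lack introns, and make mRNAs that end in a stem-loop in place of a poly(A) tail. H3K4me3 is the histone mark of active promoters. CBX8 is a chromodomain subunit of Polycomb repressive complex 1, which is known chiefly for gene repression. The histone genes lie in 2 blocks, at 26 to 26.3 Mb (block A) and 27.1 to 27.9 Mb (block B), as the definition of the stretch places them. Butyrophilin genes (immunoglobulin-family surface proteins), tRNA genes (transcribed by RNA polymerase III) and zinc finger genes (mostly DNA-binding transcription factors) neighbour them. No hg19 annotation was used here, so a region could be placed in a block but not tied to a gene. Where the histone genes lie within a block was not analysed, and a block may hold other genes. The lower share of a block is therefore not the direction of its histone genes, and direction by gene class is not given.

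Of the 50 regions, 42 were listed as lower and 8 as higher after CBX8 knockdown. Over all listed human regions, 32.2% were lower and 67.8% higher, and in the rest of chromosome 6 the lists held 89 lower and 173 higher regions. The stretch thus held 3.38% of all lower regions and 0.306% of all higher ones. The lower regions covered 169.85 kb and the higher ones 37.45 kb, together 6.91% of the 3 Mb.

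The blocks differed from each other in what they held. Block A held 0 listed regions. The last region before it, chr6:25961101-25964950 (lower, 3.85 kb), ended 35.05 kb short of 26 Mb, and the first region after it began at 26309901. Over chromosome 6 as a whole the empty gap of 344.95 kb was not unusual, since 131 of the 311 gaps between listed regions were at least as long. It was long beside the gaps within the stretch, which had a median of 25.85 kb and a maximum of 415.8 kb. Block B was the most crowded of the 4 sub-blocks, with 23 regions, or 28.75 per Mb, of which 17 were lower and 6 higher. Listed regions covered 12.8% of its 0.8 Mb. The lower share in block B was 73.9%, with an exact (Clopper-Pearson) 95% interval of 51.6 to 89.8% that covers counting error over regions only. It is a share of regions by position and not of histone genes.

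Outside the histone blocks, 25 regions were lower and 2 were higher, a lower share of 92.6% (75.7 to 99.1%). Between the blocks 7 regions were lower and 2 higher, of which 1 higher region crosses into block B and is counted in both. Beyond block B, as far as 29 Mb, 18 regions were lower and 1 was higher. The intervals inside and outside the histone blocks are no test of a difference. The members were picked from the calls that gave their direction, and neighbouring regions are not independent. No difference between the parts is claimed, and none is excluded. Of the 8 higher regions in the stretch, 6 overlapped block B.

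**Figure D1:**
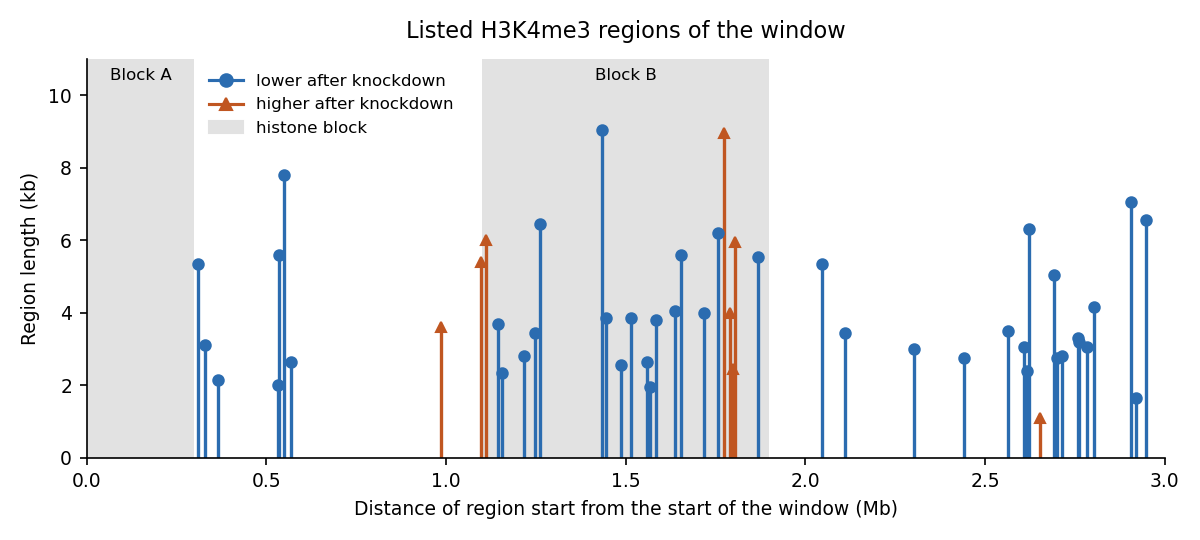
Each listed H3K4me3 region is drawn at the distance of its start from the start of the 26 to 29 Mb stretch (Mb, horizontal axis), with its length in kb as the height, a circle for lower and a triangle for higher after CBX8 knockdown. Grey bands mark the histone blocks; block A holds 0 regions, and 6 of the 8 higher regions overlap block B, in tight groups near its 2 ends.

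The higher regions of block B were not scattered through it. They stood at 2 places near its ends, and every listed region between those places was lower. The group near the left end had 2 regions, chr6:27097551-27102950 (5.4 kb) and chr6:27110651-27116650 (6 kb), separated by 7.7 kb. Both were long for higher regions, exceeding 95.2% and 96.7% of that list. A further higher region lay on its left outside the block, at chr6:26986201-26989800 (3.6 kb), 107.75 kb away.

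The group near the right end had 4 higher regions within 34.75 kb. They were chr6:27774101-27783050 (8.95 kb), chr6:27789951-27793950 (4 kb), chr6:27797401-27799850 (2.45 kb) and chr6:27802901-27808850 (5.95 kb). The gaps between them ran from 3.05 to 6.9 kb, and the regions filled 61.4% of the span from the first start to the last end. The first of the 4 ranked 27 by length among all 2611 higher regions. Across the human lists there were 256 runs of at least 4 neighbouring higher regions, with no lower region between them. Their median span was 3307 kb and their median coverage was 0.399%. These medians include runs of up to 23 regions, so they are not of runs of like size. None of the other 255 was shorter or more densely covered than this group. The next shortest, also of 4 regions, spanned 90.1 kb. This ranking was made after the group had been seen.

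The lower regions of block B formed 1 unbroken run of 16 between the higher groups, from chr6:27143901 to 27762900, followed by a single lower region beyond the right group, chr6:27868301-27873850 (5.55 kb). The change of direction took place over 27.25 kb at the left end of the run and 11.2 kb at the right end. Region lengths in the run ran from 1.95 to 9.05 kb, with a median of 3825 bp. The longest lower region of the whole stretch lay within it, at chr6:27434051-27443100 (9.05 kb), and another of 3.85 kb followed after 1850 bp (chr6:27444951-27448800). The run also held chr6:27260851-27267300 (6.45 kb), chr6:27756701-27762900 (6.2 kb) and chr6:27654651-27660250 (5.6 kb). Its other long-to-middling members were chr6:27635801-27639850 (4.05 kb), chr6:27719101-27723100 (4 kb), chr6:27514251-27518100 (3.85 kb) and chr6:27584201-27588000 (3.8 kb).

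The remaining 7 lower regions of the run were shorter. They were chr6:27143901-27147600 (3.7 kb), chr6:27247001-27250450 (3.45 kb), chr6:27217651-27220450 (2.8 kb), chr6:27558551-27561200 (2.65 kb), chr6:27485851-27488400 (2.55 kb), chr6:27155151-27157500 (2.35 kb) and chr6:27568151-27570100 (1.95 kb). The last is among the 3 shortest lower regions of the stretch. Gaps within the run had a median of 26.55 kb and ranged from 1.85 to 166.75 kb.

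Read from left to right, the whole stretch fell into 7 runs of 1 direction: 7 lower, 3 higher, 16 lower, 4 higher, 9 lower, 1 higher and 10 lower regions. Of the 49 pairs of neighbouring regions, 43 (87.8%) shared a direction, against 64.8% of the 3779 other neighbouring pairs of the human lists. Neighbours here were also closer, with a median gap of 25.85 kb against 383.05 kb. Among pairs under 100 kb apart, 36 of 41 in the stretch (87.8%) and 560 of 773 elsewhere (72.4%) shared a direction. All 7 pairs separated by less than 5 kb had a common direction, as did 53 of the 61 such pairs elsewhere. Each of these shares rises where 1 direction dominates. In the stretch 84% of regions were lower, and outside it 68.5% were higher. The comparison does not allow for this, so it partly restates the lower share for which the stretch was picked.

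Long runs of lower regions were rare in the human lists, where 32.2% of regions were lower and 67.8% higher. Run length depends on these shares, and the counts below do not allow for them. Of 676 lower runs, 268 had at least 2 regions, 16 had at least 7 and 1 had 16, which is the run in block B. The next longest lower run had 12 regions and spanned 4.40 Mb of chromosome 14, while the run in block B spanned 0.619 Mb. The outermost runs of the stretch continue past its edges, to 8 lower regions on the left and 11 on the right. Counted whole, 4 of the 16 lower runs with at least 7 regions touch the stretch. They spanned 609.3 to 909.3 kb, against a median of 1532 kb over all 16, and 1 of the other 12 was as short. Because the stretch was chosen for its crowding and direction, the rank of its lower runs partly restates that choice. Higher runs were longer by count elsewhere, with up to 23 regions on chromosome 11 over 20.8 Mb.

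**Figure D2:**
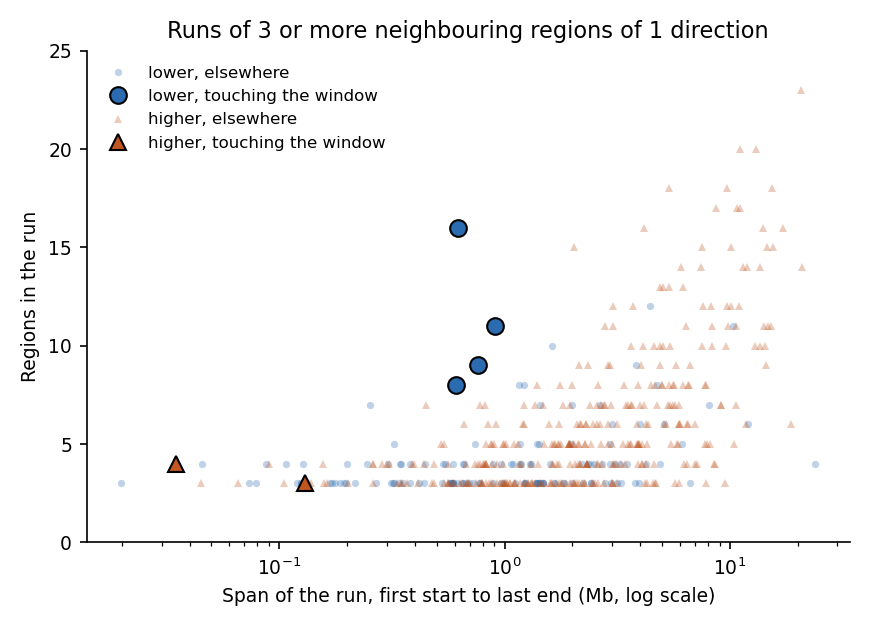
Each point is a run of 3 or more neighbouring listed regions of 1 direction, by its span in Mb (horizontal, log scale) and its number of regions (vertical), with circles for lower and triangles for higher, and large outlined symbols for runs that touch the chromosome 6 stretch. The run of 16 lower regions spans 0.619 Mb, and the group of 4 higher regions, at 34.75 kb, lies left of every other higher run of at least 4.

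Between the blocks, the 7 lower regions fell into 2 groups. On the left were chr6:26309901-26315250 (5.35 kb), chr6:26329351-26332450 (3.1 kb) and chr6:26364351-26366500 (2.15 kb), all within 66.5 kb of the right edge of block A. After a gap of 165.9 kb came chr6:26532401-26534400 (2 kb), chr6:26534851-26540450 (5.6 kb), chr6:26550351-26558150 (7.8 kb) and chr6:26567751-26570400 (2.65 kb). The first pair of that group lay only 450 bp apart, the closest neighbours of the stretch, and the 7.8 kb region was the 2nd longest lower region in it. An interval of 415.8 kb without a listed region then separated this group from the first higher region.

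Beyond block B, lower regions were sparse at first and dense later. From chr6:28046501-28051850 (5.35 kb) to chr6:28563651-28567150 (3.5 kb) there were 5 lower regions, with gaps of 57 to 190.15 kb between them. From 28.6 Mb on there were 13 lower regions and the only higher one of this part. That higher region, chr6:28653851-28654950, was the shortest member at 1.1 kb and stood 24.3 kb after one lower region and 37.85 kb before the next. The longest lower regions here were chr6:28906101-28913150 (7.05 kb) and chr6:28948051-28954600 (6.55 kb), with 1 of the shortest, chr6:28920551-28922200 (1.65 kb), between them. The last ended 45.4 kb inside the edge at 29 Mb, and the next listed region, chr6:29598001-29602100 (lower, 4.1 kb), began 598 kb outside it. The flanking 1 Mb on each side held 2 listed regions apiece, 1 lower and 1 higher.

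Set against windows of the same size elsewhere, the stretch was the most crowded with listed regions in the human lists. Among 2608 windows of 3 Mb that start at whole Mb and hold a listed region, the median count was 4. The highest count in a window that does not overlap the stretch was 24, on chromosome 10 from 2 to 5 Mb, where 22 of the 24 were higher. The highest count of lower regions in such a window was 14, on chromosome 19 from 48 to 51 Mb, beside 3 higher regions. The 42 lower regions of the stretch were 32.1% of the 131 lower regions of chromosome 6. The stretch was chosen for its crowding and direction, so its rank restates that choice. The lists hold only regions called changed, so the number of all H3K4me3 regions in each window is not known here.

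**Figure D3:**
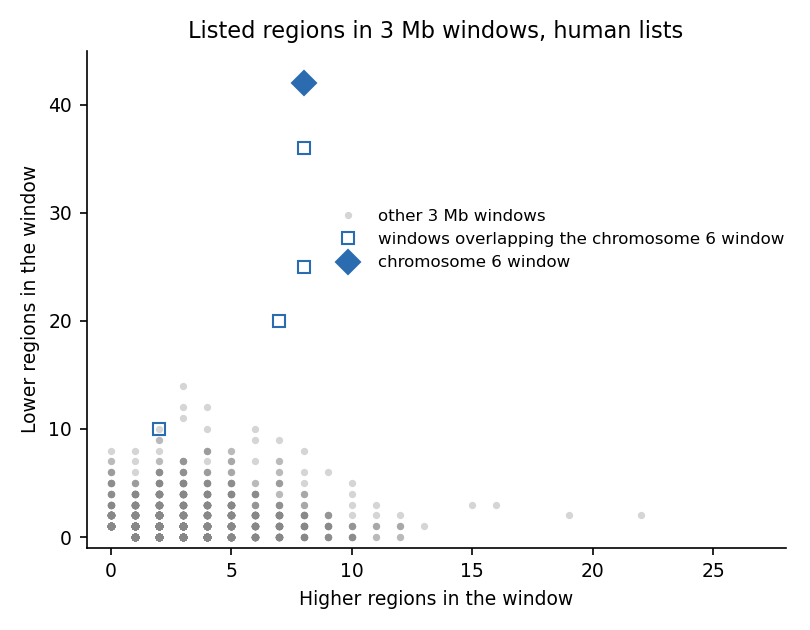
Each point is a 3 Mb window of the human genome, by its number of higher (horizontal) and lower (vertical) listed H3K4me3 regions, with the chromosome 6 stretch as a diamond and the windows that overlap it as open squares. The diamond stands at 8 higher and 42 lower regions, while windows that do not overlap it reach at most 14 lower regions.

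Region length ran against the pattern of the lists as a whole. Over all human lists, lower regions had a median of 4400 bp and higher regions of 1750 bp. In the stretch, 13 of the 42 lower regions were longer than the median of the lower list, and 7 of the 8 higher regions were longer than that of the higher list. The 6 higher regions of block B had a median of 5675 bp and the 17 lower regions beside them 3850 bp. Below 2000 bp, 2 of 3 regions of the stretch were lower, against 2.11% of 1518 elsewhere. At 2000 to 3000 bp, 11 of 12 regions of the stretch were lower, while elsewhere 22.5% of 685 regions of that length were. At 3000 to 4000 bp the values were 13 of 14 in the stretch and 49.5% of 564 elsewhere, and at 4000 to 6000 bp 9 of 12 and 66.6% of 653. At 6000 bp and above they were 7 of 9 and 78.3% of 382.

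**Figure D4:**
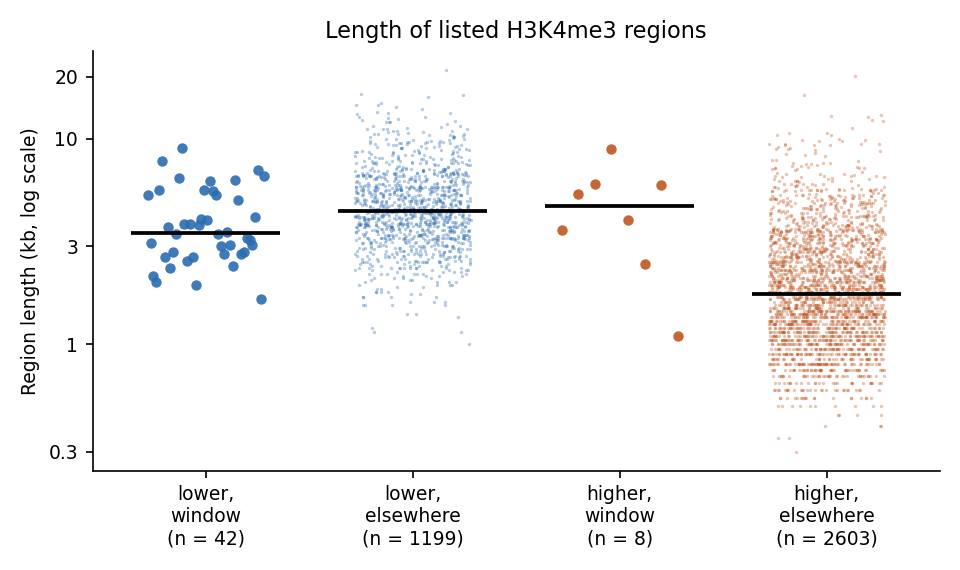
Points are listed H3K4me3 regions by length (kb, log scale), split by direction and by whether they lie in the chromosome 6 stretch, with horizontal lines at the medians. The median of the lower regions is 3475 bp in the stretch and 4450 bp elsewhere. That of the higher regions is 4700 bp in the stretch, where there are only 8, and 1750 bp elsewhere. The 2 directions overlap in length in both places.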

How the data were processed

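H3K4me3 ChIP-seq of MDA-MB-231-Luc cells was read as single-end reads of 100 bp, per the labels' protocols. The submitters' processing notes name hg19 as the human build, and SICER, MACS2 2.1.0, FastQC 0.10.0 and Bowtie 1.0.0 as tools; which tool called the changes, how the input served and how depth was scaled are not given in the sources used here. The authors' 2 human lists carry a q-value of 0.002 in their names and 3 columns (chromosome, start, end). The 6 mouse lists were not used.

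All starts lay on a grid of 50 bp and all ends 1 bp below it, so ends were read as included; positions are printed counted from 1. Regions, runs, gaps and 3 Mb windows were counted with Python 3.11.15, pandas 2.3.3 and scipy 1.17.1, figures drawn with matplotlib 3.10.9, and the code was tested on simulated data. Members, blocks and lists were chosen with earlier results of these data known. Every region of the histone blocks, every higher region, and the 5 longest and 3 shortest lower regions are named, with the nearest region outside each edge; other regions were named after their values were seen. Alternatives were merging within 5000 bp, base pairs in place of counts, minimum lengths and moved edges. The gene table at hand was of mouse (GRCm38.p6), so gene starts and sequences were not analysed here.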

Additional observations from a re-analysis of the deposited data

How the results depend on the processing

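All 11 alternative values stayed within the exact 95% interval of the share they were set against. The alternatives largely reuse the same regions and the intervals are wide, so this outcome was likely beforehand and is not independent support. Those intervals also treat neighbouring regions as independent, which they are not. The lower share of the stretch, 84% (70.9 to 92.8%), ranged from 78.1% with 0.5 Mb taken off each side to 86.0% with regions of a list closer than 5000 bp merged. It was 81.9% of base pairs covered, 81.5% with 1 Mb added on each side, and 85.7% with a minimum length set at the human median. A minimum of 1000 bp removed no region. The share of regions in the histone blocks, 73.9%, is not that of their histone genes. It ranged from 68.7% of base pairs to 80% after merging. It was 77.8% with edges widened by 0.1 Mb, which takes in 4 more lower regions. Of these, chr6:25961101-25964950 lies outside the stretch, and the others were also counted between the blocks. Outside the blocks, 92.6% became 91.3% after merging and 95.4% of base pairs. The counts of histone gene starts in lower regions, planned with 2 alternatives, were not run without an hg19 annotation. No paired analysis was possible because each condition has 1 library. The unknown depth sets no limit that can be stated here on regions missing from the lists.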
